A study of Homo sapiens with 6 samples.

Results

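The genes described here are the colony-stimulating factors (CSFs) and their receptors in T24 cells, an established human bladder cancer cell line of epithelial origin. They were chosen by gene symbol as 3 ligand genes (CSF1, CSF2 and CSF3) and 4 receptor genes (CSF1R, CSF2RA, CSF2RB and CSF3R), which makes 7 of the 58174 genes in each file. RNA-seq values were available for 3 samples of cells with a short hairpin RNA against UBC9 (shRNA-UBC9) and for 3 samples with a scrambled control hairpin (shRNA-NC). UBC9 is an enzyme of the SUMO conjugation pathway. The UBC9 hairpin was delivered by a lentiviral vector and the cells were selected with puromycin, and 1 hairpin sequence against UBC9 is given. The comparison asks which genes of the family changed their RNA level when UBC9 was depleted. Nothing states that the 3 samples of a group came from separate cultures, so the p-values measure only the spread between these samples, which may be technical.

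CSFs are secreted glycoproteins that control the survival, proliferation and maturation of myeloid blood cells. CSF1 (M-CSF) acts on monocytes and macrophages through the receptor tyrosine kinase CSF1R, CSF2 (GM-CSF) acts on granulocytes, macrophages and dendritic cells through the CSF2RA and CSF2RB chains, and CSF3 (G-CSF) drives the production and release of neutrophils through CSF3R. The ligands are made by many cell types, epithelial and cancer cells included, and their genes are known to respond to inflammatory signals, whereas the receptors are found mainly on blood cells and their progenitors.

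The values are RPKM, reads scaled to the length of the gene and to the total of mapped reads, so that levels of different genes can be set side by side. The steps between low values correspond to about 28200000 to 36100000 mapped reads in a sample, with the shallowest libraries being shRNA-UBC9 replicate 3 (28200000) and shRNA-NC replicate 1 (29800000). Of the 8 urothelial and epithelial marker genes examined, 6 had levels high enough to be tested, led by the keratin KRT7 at 555.7 ± 62.3 RPKM (SD, n = 3) in shRNA-NC, while the uroplakins UPK1A and UPK2 were near 0 in all samples. The list summed to 943.4 to 1116 RPKM in shRNA-NC and to 430.2 to 568.3 RPKM in shRNA-UBC9, and KRT7, KRT18 and KRT8 made up most of this sum. Its DEG was KRT7, with a log2 fold change of -1.11 (adjusted p = 0.000578, limma). KRT8, KRT18, KRT19 and GATA3 were lower too and missed the DEG rule only by the fold threshold. Their log2 fold changes were -0.81, -0.93, -0.99 and -0.79 (adjusted p = 0.0042, 0.000959, 0.00698 and 0.016, limma). EPCAM went the other way, from a mean of 0.658 to 1.505 RPKM, and was not a DEG (log2 fold change 0.996, adjusted p = 0.0984, limma). The part of these differences in the CSF results was not tested. A difference between libraries is given here because CSF3R, alone of the receptor genes, shared it. The leukocyte genes PTPRC, MPO, LYZ and CD3E were all at 0 RPKM in shRNA-NC replicate 1 and shRNA-UBC9 replicate 3. In the other 4 libraries all were above 0 and summed to between 0.757 and 1.18 RPKM. They were picked for this pattern, and the other leukocyte markers examined did not share it. CD14 (0.657 and 0.752 RPKM), CD33 (0.0393 and 0.0475 RPKM) and ITGAM (0.0177 and 0.00626 RPKM) were above 0 in both libraries. SPI1 was highest in shRNA-NC replicate 1 (0.0486 RPKM), and NKG7 was above 0 there (0.0717 RPKM). FCGR3A and TYROBP were at 0 in both, but in a further library too.

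All 3 ligand genes were up-regulated in shRNA-UBC9, by very different amounts, and no receptor gene reached a level that could be tested. A differentially expressed gene (DEG) is one with a log2 fold change beyond 1 in either direction and a Benjamini-Hochberg adjusted p below 0.05 in limma on log2(RPKM + 0.1), over the 12428 genes with at least 0.5 RPKM in at least 3 of the 6 samples. Fold changes on this scale understate the change of low genes. By this rule 3 of 3 tested members were up-regulated, beside 5.2% of all tested genes (2.7% were down-regulated, 7.89% in either direction). In each of these 3 genes every shRNA-UBC9 sample was above every shRNA-NC sample, which held for 25.7% of all tested genes, while 51.1% had no overlap in either direction. With no fold threshold, 36.8% of all tested genes had an adjusted p below 0.05.

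CSF3 lies on chromosome 17 (GRCh38, chr17:40015361-40017813, plus strand). It measured 5.71, 4.45 and 1.65 RPKM in shRNA-NC replicates 1 to 3 and 460.3, 690.5 and 708.3 RPKM in shRNA-UBC9 replicates 1 to 3. The groups were far apart, and even the lowest shRNA-UBC9 sample was well beyond all controls. Group means were 3.93 ± 2.08 and 619.7 ± 138.3 RPKM (SD, n = 3 each), with a ratio of 157.5 between the means and a log2 fold change of 7.41 (SE 0.40, 95% interval 6.49 to 8.32, adjusted p = 1.6e-05, limma). CSF3 moved from rank 7702 to rank 32 by mean RPKM among the 12428 tested genes, so that it passed from the lower middle of the expressed genes to among the most abundant ones. The control values correspond to 378, 342 and 124 reads, so the baseline was measured above the limit of detection. By log2 fold change CSF3 ranked 7 among all tested genes.

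CSF2 lies on chromosome 5 (GRCh38, chr5:132073789-132076170, plus strand), next to the gene of the related cytokine IL3. It measured 3.32, 3.60 and 0.676 RPKM in shRNA-NC replicates 1 to 3 and 93.8, 62.5 and 46.0 RPKM in shRNA-UBC9 replicates 1 to 3. The control level was low and uneven, with 78, 98 and 18 reads, and shRNA-NC replicate 3 stood well below the other two. Group means were 2.53 ± 1.61 and 67.4 ± 24.3 RPKM (SD, n = 3 each), with a ratio of 26.6 between the means and a log2 fold change of 4.92 (SE 0.55, 95% interval 3.65 to 6.19, adjusted p = 0.000497, limma). Without shRNA-NC replicate 3 the log2 fold change was 4.19 (adjusted p = 0.000168, limma). CSF2 went from rank 9071 to rank 528 by mean RPKM and ranked 29 by log2 fold change.

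The sequence before the start of CSF2 is shown because this ligand gene rose strongly and its promoter is the one among the induced ligands that the reference table used here holds. RefSeq promoter windows (GRCh38.p14) were found for 4 of the 7 members, CSF2, CSF1R, CSF2RA and CSF3R. The bases just upstream of the CSF2 start, chr5:132073539-132073788 on the plus strand, are printed 5′ to 3′, with capitals marking the CK-1 core, an element known from cytokine gene promoters.
CSF2 upstream region: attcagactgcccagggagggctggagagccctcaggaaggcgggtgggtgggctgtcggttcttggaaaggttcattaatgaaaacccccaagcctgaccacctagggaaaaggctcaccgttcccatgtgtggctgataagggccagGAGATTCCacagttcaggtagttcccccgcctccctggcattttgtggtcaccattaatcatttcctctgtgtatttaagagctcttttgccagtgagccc
The CK-1 core (GAGATTCC) begins 101 bases before the gene start, and the same letters on either strand were present in 0.735% of 35116 promoter windows of equal length. The letters of AP-1 (TGANTCA), C/EBP (TTGCNNAA), a TATA box (TATAAA) and the NF-kappaB consensus were searched on both strands too and were not in this window. Among all windows, 6.57% held the AP-1 letters, 9.05% the C/EBP letters, 10.7% the TATA box letters and 9.96% the NF-kappaB consensus. In the receptor genes, one CSF1R window held the AP-1 letters 34 bases before the start, and one CSF3R window held C/EBP letters 206 bases and TATA box letters 162 bases before the start.

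CSF1 lies on chromosome 1 (GRCh38, chr1:109910242-109930992, plus strand). It measured 4.15, 5.01 and 2.46 RPKM in shRNA-NC replicates 1 to 3 and 6.34, 8.95 and 7.57 RPKM in shRNA-UBC9 replicates 1 to 3. The groups did not overlap, but the gap between the highest control and the lowest knockdown sample was small. The mean went from 3.87 ± 1.30 to 7.62 ± 1.30 RPKM (SD, n = 3 each), a ratio of 1.97 between the means. The log2 fold change was 1.002 (SE 0.24, 95% interval 0.45 to 1.56, adjusted p = 0.0138, limma), so that CSF1 met the fold threshold only just. It remained a DEG in 11 of 16 alternative analyses and not in the other 5. The 11 include the rule with an unadjusted p and the rule with no fold threshold. Both only loosen the main rule, so their outcome was fixed in advance. Its log2 fold change was 0.71 without shRNA-NC replicate 3, 0.88 without shRNA-UBC9 replicate 2, 0.85 with a pseudocount of 1, and 0.96 with either quantile normalization or median scaling. All 16 gave a positive difference with an adjusted p of at most 0.0457 (limma).

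**Figure D1:**
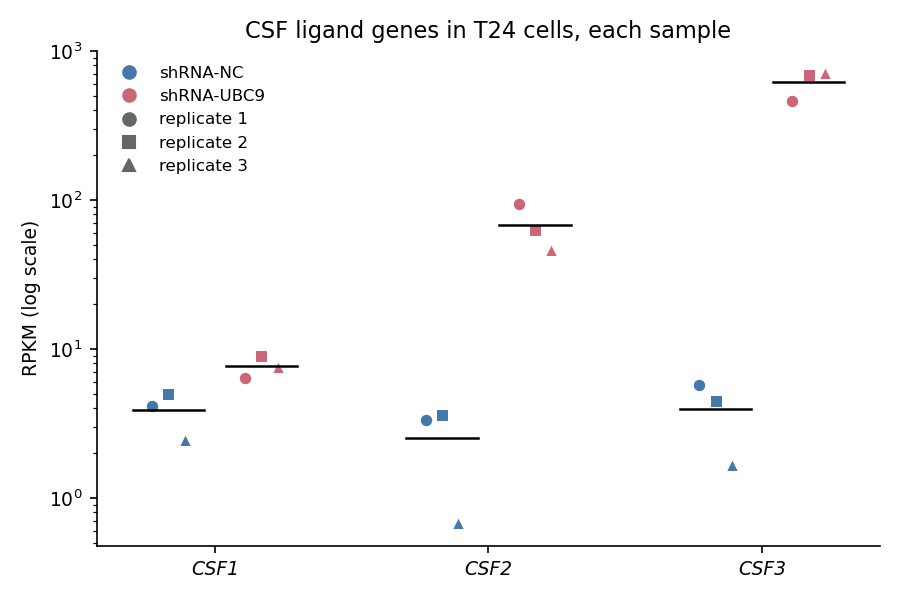
RPKM of CSF1, CSF2 and CSF3 on a log axis in each of the 6 samples, blue for shRNA-NC and red for shRNA-UBC9, with symbols for the replicate and a bar at the group mean. The 3 genes start from similar means of 2.53 to 3.93 RPKM in shRNA-NC and end at 7.62, 67.4 and 619.7 RPKM in shRNA-UBC9, and shRNA-NC replicate 3 is the lowest sample for all of them.

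**Figure D2:**
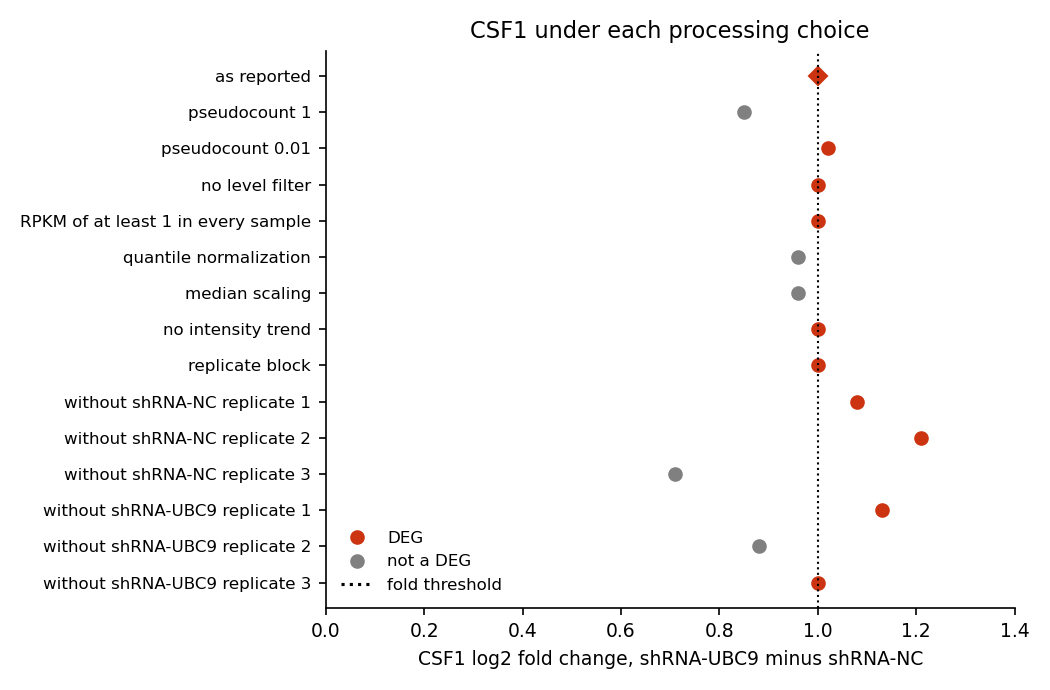
Log2 fold change of CSF1 as reported (diamond) and under other processing choices (circles), with a dotted line at the fold threshold of 1. Red points pass the DEG rule and grey points do not, and the values run from 0.71 to 1.21 on both sides of the line.

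In shRNA-NC the 3 ligand genes had much the same level, in the order CSF3, CSF1 and CSF2 by mean RPKM (3.93, 3.87 and 2.53), and no neighbours in this order differed beyond their spread. In shRNA-UBC9 the order was CSF3, CSF2 and CSF1 (619.7, 67.4 and 7.62), and the ranges of all 3 genes were separate. The balance between the ligands thus differed between the groups. The log2 ratio of CSF3 to CSF1 was -0.10 ± 0.52 in shRNA-NC and 6.33 ± 0.19 in shRNA-UBC9 (SD, n = 3 each), a difference of 6.43. For CSF2 to CSF1 it was -0.89 ± 0.85 and 3.10 ± 0.69, a difference of 3.99. For CSF3 to CSF2 it was 0.79 ± 0.49 and 3.24 ± 0.85, a difference of 2.44. None of the 3 ratios overlapped between the groups, and each gave p = 0.1 in a two-sided exact permutation test (adjusted p = 0.1 over the 3 ratios), the smallest value that 3 samples against 3 can give.

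The replicates did not rank alike for the 3 ligands. The lowest control for CSF1, CSF2 and CSF3 was in each case shRNA-NC replicate 3. Among the knockdown samples, replicate 1 had the highest CSF2 (93.8 RPKM) but the lowest CSF1 (6.34 RPKM) and CSF3 (460.3 RPKM). Across all 6 samples, the Pearson correlation of log2(RPKM + 0.1) was 0.974 between CSF2 and CSF3, 0.917 between CSF1 and CSF2 and 0.899 between CSF1 and CSF3. These are descriptions over 6 points that fall into the 2 groups, so the difference between groups sets most of them.

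The 4 receptor genes were at or near 0. By the smallest whole numbers that fit the values, they had 69 reads together over the 6 libraries. On that reading no gene had more than 12 reads in a library, and the highest value was 0.0869 RPKM. A level of 3 reads corresponds to between 0.00990 and 0.0278 RPKM, depending on the gene and library. All 4 were below the filter and were compared by a two-sided exact permutation test of the group means.

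CSF1R, the receptor kinase of CSF1 on chromosome 5 (GRCh38, chr5:150053291-150113372, minus strand), had 0, 1 and 1 reads in the shRNA-NC samples and 4, 1 and 5 reads in the shRNA-UBC9 samples. The groups overlapped at 1 read, with means of 0.00378 ± 0.00328 and 0.0205 ± 0.0145 RPKM (SD, n = 3 each, exact permutation p = 0.3). CSF2RA, the ligand-specific alpha chain of the GM-CSF receptor (GRCh38, chrX:1268800-1310381, plus strand), had 0, 3 and 0 reads against 12, 2 and 0 (exact permutation p = 0.7), read as the smallest whole numbers in that ratio. It lies in the pseudoautosomal region, which has identical copies on X and Y, so its reads could be split or dropped in counting. CSF2RB, the beta chain shared with the IL3 and IL5 receptors (GRCh38, chr22:36913628-36940439, plus strand), had 1 read in shRNA-NC replicate 2 and 1 read in shRNA-UBC9 replicate 1 (exact permutation p = 1.0). Differences at this depth were not detectable for any of these 3 genes.

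CSF3R, the receptor of the most strongly induced ligand (GRCh38, chr1:36466043-36483278, minus strand), had 0, 9 and 11 reads in shRNA-NC replicates 1 to 3 and 10, 8 and 0 reads in shRNA-UBC9 replicates 1 to 3. These too are the smallest whole numbers in that ratio. Its exon length gave higher estimates, 11.3 and 13.8 in shRNA-NC replicates 2 and 3 and 12.6 and 10.1 in shRNA-UBC9 replicates 1 and 2. Its mean was 0.0231 ± 0.0204 RPKM in shRNA-NC and 0.0199 ± 0.0175 RPKM in shRNA-UBC9 (SD, n = 3 each, exact permutation p = 0.8). The libraries without a CSF3R read, shRNA-NC replicate 1 and shRNA-UBC9 replicate 3, were those without PTPRC, MPO, LYZ or CD3E reads and also the shallowest ones. No other receptor gene had its zeros in just these libraries. LYZ, which encodes the lysozyme of myeloid cells, was 0, 0.409 and 0.536 RPKM in the shRNA-NC samples and 0.786, 0.595 and 0 RPKM in the shRNA-UBC9 samples. MPO, the myeloperoxidase of granulocytes, was 0, 0.0819 and 0.126 RPKM and then 0.142, 0.0966 and 0 RPKM. PTPRC, the pan-leukocyte antigen CD45, and CD3E, a T-cell receptor chain, followed the same order of zeros. Their part in the CSF3R values was not tested. In a bulk sample, fewer cells of a type and less RNA per cell cannot be told apart.

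**Figure D3:**
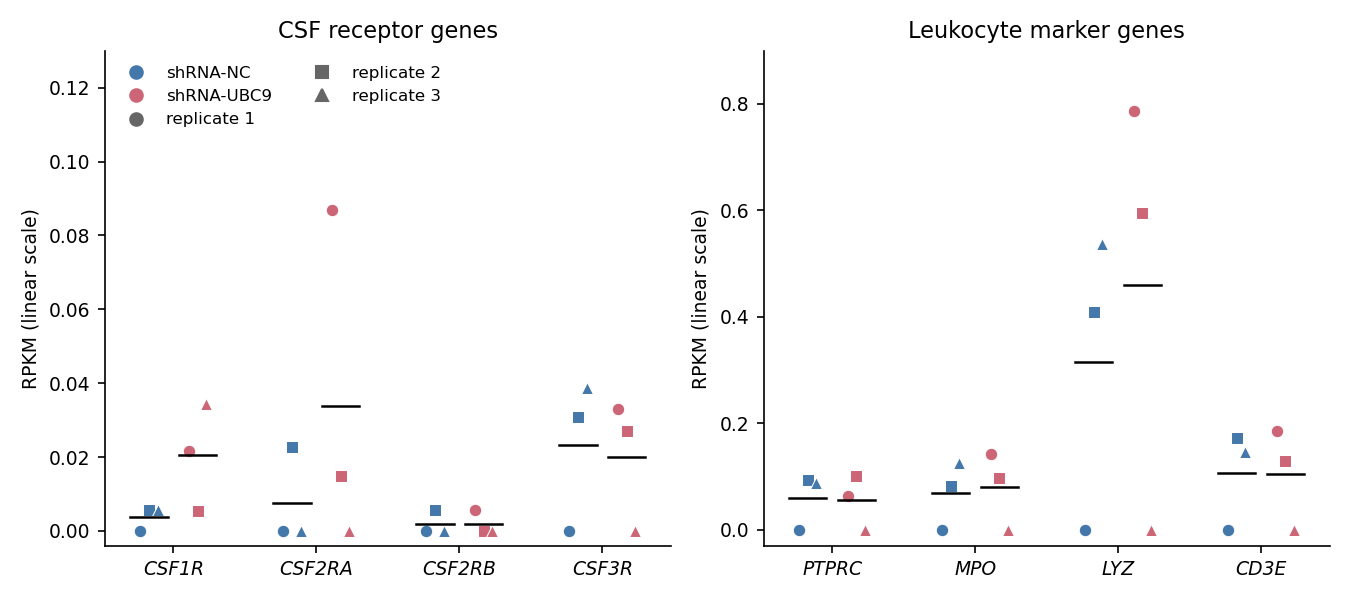
RPKM on linear axes of the 4 receptor genes (left) and of 4 leukocyte marker genes (right) in each sample, blue for shRNA-NC and red for shRNA-UBC9, with symbols for the replicate and a bar at the group mean. CSF3R and the 4 marker genes shown are at 0 in shRNA-NC replicate 1 and shRNA-UBC9 replicate 3. They are above 0 in the other 4 libraries, in both groups. The markers CD14, CD33, ITGAM and CD68, not shown, were above 0 in every library. No receptor value exceeds 0.0869 RPKM.

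The values of the pair of libraries without those leukocyte reads, chosen after they were seen, are given with no test. In shRNA-NC replicate 1 and shRNA-UBC9 replicate 3, CSF3 was 5.71 and 708.3 RPKM (6.93 on the log2 scale), CSF2 was 3.32 and 46.0 RPKM (3.75), and CSF1 was 4.15 and 7.57 RPKM (0.85). The leukocyte and myeloid marker list of 10 genes summed to 2.50 to 4.71 RPKM in shRNA-NC and to 20.4 to 50.1 RPKM in shRNA-UBC9. Most of the rise came from CD68, which encodes a lysosomal protein of macrophages that other cells can make too, at 2.65 ± 0.97 and 32.2 ± 15.1 RPKM (SD, n = 3 each, log2 fold change 3.52, adjusted p = 0.000376, limma). Without CD68 the other 9 genes summed to 0.763 to 1.54 RPKM in shRNA-NC and to 0.805 to 1.81 RPKM in shRNA-UBC9, with overlapping ranges. The part of these markers in the ligand results was not tested.

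Other ligands and chains of the CSF receptor families were not expressed at a testable level. IL34, the second ligand of CSF1R, and IL3, whose receptor shares the CSF2RB chain, were at 0 in all 6 samples. IL3RA, the alpha chain of the IL3 receptor, was at 0 in every shRNA-NC sample and at 0.0649, 0.0664 and 0.0207 RPKM in the shRNA-UBC9 samples, where the groups did not overlap (exact permutation p = 0.1). It lies beside CSF2RA in the pseudoautosomal region, with the same limit on its reads. IL5 and IL5RA, the ligand and alpha chain of the third receptor that uses CSF2RB, were at 0 in shRNA-NC and at most 0.0223 RPKM in shRNA-UBC9. Of the 5 genes of this list, 0 passed the filter.

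Growth factors for other blood lineages were higher too, though only KITLG passed the DEG rule. Of 6 listed genes 4 were tested and 1 was up-regulated, beside 5.2% of all tested genes. All 4 were higher in shRNA-UBC9, and their median log2 fold change was 0.76, beside 0.005 over all tested genes. KITLG, or stem cell factor, was 7.62, 5.71 and 6.76 RPKM in shRNA-NC and 9.69, 20.1 and 18.1 RPKM in shRNA-UBC9 (log2 fold change 1.18, SE 0.25, adjusted p = 0.00809, limma). Its lowest knockdown sample, replicate 1, was only a little above the controls, and leaving out shRNA-UBC9 replicate 2 gave 0.98, below the threshold. IL11, which supports megakaryocytes, had a log2 fold change of 0.85 (adjusted p = 0.00814), IL7, a lymphocyte growth factor, one of 0.68 (adjusted p = 0.0219), and FLT3LG, which acts on dendritic cell progenitors, one of 0.48 (adjusted p = 0.0302, limma). Of the 6 receptors of these factors 3 were tested and 0 were DEGs, beside 7.89% of all tested genes, with a median log2 fold change of -0.13. KIT, the receptor of KITLG, was at 0 in all shRNA-UBC9 samples and at most 0.0519 RPKM in shRNA-NC.

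The kinases and transducers that act below CSF receptors were mostly expressed. Of 27 listed genes 25 were tested and 1 was up-regulated, beside 5.2% of all tested genes, with a median log2 fold change of 0.05. With no fold threshold 7 were higher and 1 was lower at an adjusted p below 0.05, beside 36.8% of all tested genes in either direction. Among them MAP2K1, a kinase of the MAP kinase cascade, had a log2 fold change of 0.87 (adjusted p = 0.000776) and GAB2, an adaptor, one of -0.53 (adjusted p = 0.0141, limma). JAK2, the kinase bound by CSF2RB, was 1.74 ± 0.08 and 1.73 ± 0.12 RPKM (SD, n = 3 each, log2 fold change -0.01), and the transcription factors STAT3, STAT5A and STAT5B had log2 fold changes of 0.17, -0.09 and -0.22, each with an adjusted p above the threshold (0.228, 0.689 and 0.119, limma). FES, a kinase of myeloid cells, was below the filter, at no more than 0.0545 RPKM.

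Of the negative regulators of CSF receptor signalling, 2 of the 6 that were tested (9 listed) were DEGs, beside 7.89% of all tested genes. In shRNA-UBC9 3 were higher and 3 were lower, and the median log2 fold change was 0.0. SOCS2, a suppressor of JAK-STAT signalling, was 7.02, 7.70 and 6.87 RPKM in shRNA-NC and 2.63, 2.46 and 2.51 RPKM in shRNA-UBC9 (log2 fold change -1.47, SE 0.09, adjusted p = 3.1e-05, limma), and its groups were well separated. SOCS3, known as a brake on the G-CSF receptor, was 9.33, 8.41 and 7.52 RPKM and then 11.9, 20.7 and 20.5 RPKM (log2 fold change 1.02, SE 0.21, adjusted p = 0.00637, limma). SOCS3 was only just past the fold threshold and kept its call in 10 of 16 alternatives, counting the looser rules that could not remove it. Its value was 0.89 without shRNA-UBC9 replicate 2, 0.90 without shRNA-UBC9 replicate 3 and 0.95 without shRNA-NC replicate 3. CISH, a target and inhibitor of STAT5 signalling, was below the filter at 0.226 ± 0.026 and 0.254 ± 0.018 RPKM (SD, n = 3 each).

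Transcription factors known to act on CSF genes were higher in the majority of cases. Of 21 listed genes 17 were tested, 6 were up-regulated and 0 were down-regulated, beside 5.2% and 2.7% of all tested genes. Of those tested, 15 were higher in shRNA-UBC9, and the median log2 fold change was 0.60, beside 0.005 over all tested genes. CEBPB, which binds cytokine gene promoters in inflammation, stood at 15.3 ± 1.8 RPKM in shRNA-NC and 70.6 ± 11.4 RPKM in shRNA-UBC9 (SD, n = 3 each, log2 fold change 2.19, SE 0.14, adjusted p = 3.1e-05, limma). Among the NF-kappaB subunits, NFKB2 rose from 12.0 ± 2.6 to 40.6 ± 4.9 RPKM and RELB from 2.64 ± 1.31 to 9.83 ± 0.76 RPKM (SD, n = 3 each), with log2 fold changes of 1.76 (adjusted p = 0.000238) and 1.99 (adjusted p = 0.00292, limma). RELA and NFKB1, subunits of the classical dimer, had smaller log2 fold changes of 0.44 and 0.60 (adjusted p = 0.00962 and 0.00569, limma), short of the fold threshold.

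The AP-1 subunit JUNB stood at 12.9 ± 1.9 RPKM in shRNA-NC and 41.1 ± 6.1 RPKM in shRNA-UBC9 (SD, n = 3 each, log2 fold change 1.66, adjusted p = 0.000135, limma). FOS, its partner, was low at 0.279, 0.357 and 0.301 RPKM in shRNA-NC and 2.17, 1.44 and 1.02 RPKM in shRNA-UBC9 (log2 fold change 1.94, adjusted p = 0.00118, limma), and with a pseudocount of 1 its value was 0.93. All FOS controls were below 0.5 RPKM, so it passed the filter only through the group where it was high, and its place in the count above is no support. CEBPD, a relative of CEBPB, was 2.78, 3.45 and 2.28 RPKM and then 7.36, 7.04 and 3.71 RPKM (log2 fold change 1.02, adjusted p = 0.017, limma). CEBPD kept its call in 8 of 16 alternatives, counting the looser rules that could not remove it. It lost the call without shRNA-NC replicate 1 (1.02, adjusted p = 0.0533, limma), shRNA-NC replicate 3 (0.88), shRNA-UBC9 replicate 1 (0.85) or shRNA-UBC9 replicate 2 (0.88). SPI1, the myeloid factor that drives CSF receptor genes, was below the filter at no more than 0.0486 RPKM in any sample.

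Among cytokines that induce CSF genes in many cell types, IL1A, IL1B and TNF rose. Of 11 listed ligands and receptors 7 were tested, 4 were up-regulated (5.2% of all tested genes) and 0 down-regulated, and the median log2 fold change was 1.62. IL1B was 28.1, 32.4 and 22.3 RPKM in shRNA-NC and 493.9, 512.8 and 402.5 RPKM in shRNA-UBC9 (log2 fold change 4.09, SE 0.15, adjusted p = 7e-06, limma). IL1A, which acts on the same receptor, was 10.3, 14.0 and 7.39 RPKM and then 123.5, 134.0 and 100.9 RPKM (log2 fold change 3.52, SE 0.21, adjusted p = 2.8e-05, limma). TNF was much lower, at 0.940, 1.55 and 0.282 RPKM and then 6.45, 7.01 and 5.58 RPKM (log2 fold change 2.89, SE 0.45, adjusted p = 0.00203, limma). In each of these 3 genes, as in the CSF ligands, shRNA-NC replicate 3 was the lowest sample.

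On the receiving side, IL1RAP, the accessory chain of the IL-1 receptor, went up, with 1.06 ± 0.12 RPKM in shRNA-NC and 3.50 ± 0.91 RPKM in shRNA-UBC9 (SD, n = 3 each, log2 fold change 1.62, adjusted p = 0.000516, limma). The ligand-binding chain IL1R1 was below the filter, at 0.240 ± 0.184 and 0.465 ± 0.082 RPKM. TNFRSF1A, the main TNF receptor, was well expressed, with a log2 fold change of -0.20 (adjusted p = 0.163, limma). IL17A, an inducer of CSF3 made by lymphocytes, was at 0 in all samples, and IL17C was below the filter, at no more than 0.221 RPKM in any sample.

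Proteins that bind AU-rich elements or stem-loops in cytokine mRNAs and control their decay were all expressed. Of the 11 listed, all were tested, 1 was up-regulated and 1 was down-regulated, beside 5.2% and 2.7% of all tested genes, and the median log2 fold change was 0.0. ZC3H12A (regnase-1), an RNase that degrades inflammatory mRNAs, was 5.98, 7.48 and 2.65 RPKM in shRNA-NC and 31.5, 36.4 and 37.5 RPKM in shRNA-UBC9 (log2 fold change 2.81, SE 0.32, adjusted p = 0.000522, limma). ZFP36L2, which promotes decay through AU-rich elements, went from 15.2 ± 0.4 to 7.19 ± 1.55 RPKM (SD, n = 3 each, log2 fold change -1.09, adjusted p = 0.00121, limma), and without shRNA-UBC9 replicate 1 its value was -0.92, short of the fold threshold. ZFP36 (tristetraprolin), which acts on CSF2 mRNA, had a log2 fold change of 0.88 (adjusted p = 0.00312, limma). ELAVL1, a stabilizing factor, had one of -0.31 (adjusted p = 0.0251, limma).

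**Figure D4:**
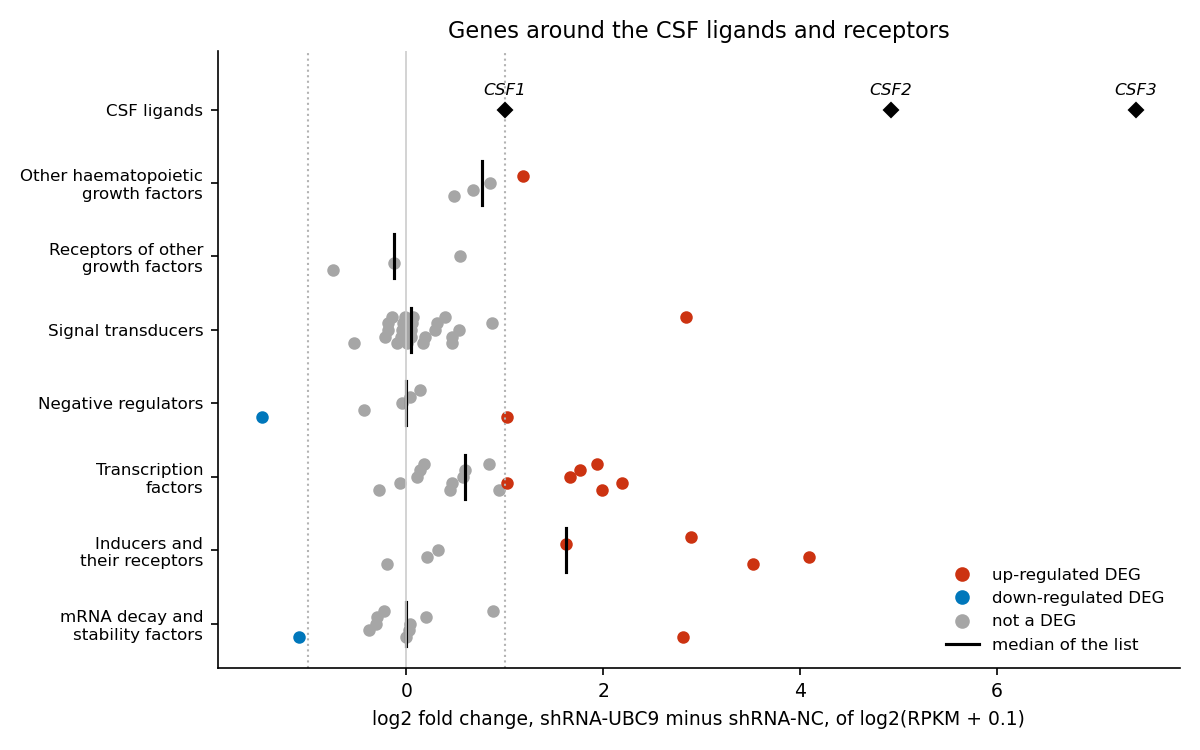
Log2 fold change, shRNA-UBC9 minus shRNA-NC, of the CSF ligands (black diamonds) and of every tested gene in the 7 lists that had one (circles), with the list median as a black bar and dotted lines at the fold threshold. Red and blue circles are up- and down-regulated DEGs; inducers have the highest median (1.62), and CSF3 at 7.41 and CSF2 at 4.92 exceed every gene of the lists.

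The genes on either side of the members were examined next. Among the 3 nearest protein-coding genes on each side of all 7 members, 42 positions in all, 26 genes were tested. Of these, 3 were up-regulated and 1 was down-regulated, beside 7.89% of all tested genes called in either direction. The up-regulated genes include ZC3H12A, which lies 991.3 kb from CSF3R and is also counted among the mRNA decay factors above. Around CSF3, the nearest gene MED24, at a distance of 1.3 kb, had a log2 fold change of -0.11 (adjusted p = 0.451), and PSMD3, at 17.4 kb, had one of 0.20 (adjusted p = 0.159, limma). NR1D1, the clock repressor REV-ERB alpha, at 75.0 kb, was up-regulated from 2.81 ± 0.84 to 7.80 ± 1.08 RPKM (SD, n = 3 each, log2 fold change 1.48, adjusted p = 0.00165, limma). GSDMA, at 37.6 kb, was below the filter at 0.00983 ± 0.0170 and 0.146 ± 0.051 RPKM (SD, n = 3 each).

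Around CSF2, IL3 at a distance of 10.6 kb was at 0 in every sample. On the other side, P4HA2 had a log2 fold change of -0.15 (adjusted p = 0.571), PDLIM4 one of 0.59 (adjusted p = 0.00223), and SLC22A4, a membrane transporter at 218.2 kb, was up-regulated by 1.19 (adjusted p = 0.00051, limma). Around CSF1, 0 of the 4 tested neighbours were DEGs. AHCYL1, at 53.8 kb, went the other way, from 30.9 ± 0.8 to 18.9 ± 0.8 RPKM (SD, n = 3 each, log2 fold change -0.71, adjusted p = 0.000443, limma). Next to CSF1R, PDGFRB, the related receptor kinase of platelet-derived growth factor, was low and down-regulated, from 0.764 ± 0.230 to 0.202 ± 0.014 RPKM (SD, n = 3 each, log2 fold change -1.48, adjusted p = 0.00325, limma). All PDGFRB values in shRNA-UBC9 were below 0.5 RPKM, so it passed the filter only through shRNA-NC, where it was high. Its place in the count of neighbours is no support.

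**Figure D5:**
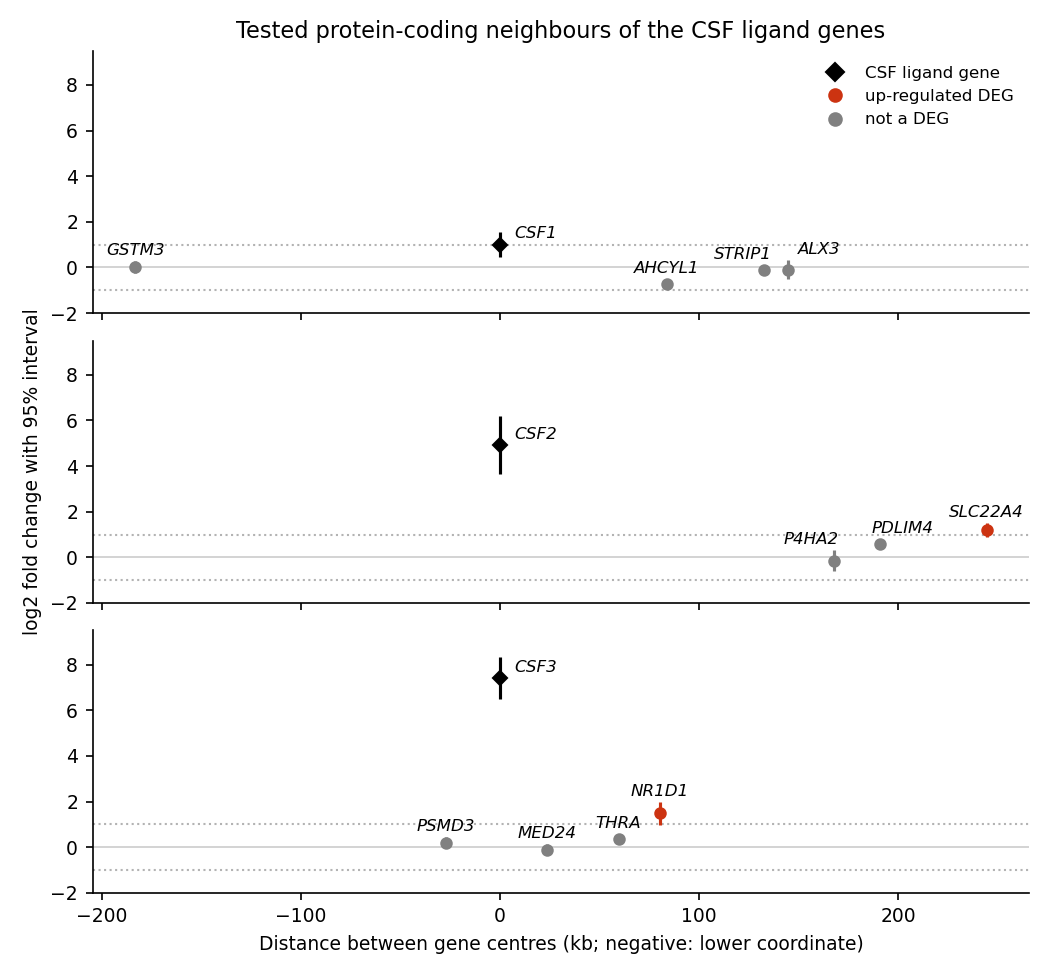
Log2 fold change with its 95% interval of each CSF ligand gene (black diamond) and of its tested protein-coding neighbours (circles) against the distance between gene centres in kb, with dotted lines at the fold threshold. MED24 and PSMD3 beside CSF3 lie near 0, and the up-regulated neighbours (red) are NR1D1 at 1.48 and SLC22A4 at 1.19.

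The genes whose pattern was most like that of each ligand were ranked by Pearson correlation of log2(RPKM + 0.1) over the 6 samples, as a description. For CSF3 the closest were NOCT (0.999), GALNT6 (0.999), RP1-221C16.8 (0.998), EML2 (0.998) and ADAMTS9 (0.998). ADAMTS9, a secreted metalloprotease, was at 0.114 ± 0.054 RPKM in shRNA-NC and 5.74 ± 1.58 RPKM in shRNA-UBC9 (SD, n = 3 each), passing the filter only through the latter, and NOCT, a circadian phosphatase, at 2.44 ± 0.22 and 5.41 ± 0.19 RPKM. For CSF2 the closest were PAQR7 (0.997), TNFRSF9 (0.997), ICAM1 (0.997), LINC00623 (0.996) and IRF3 (0.995). Like ADAMTS9, both TNFRSF9 and RP1-221C16.8 were below 0.5 RPKM in every shRNA-NC sample and passed the filter only through shRNA-UBC9. ICAM1, the leukocyte adhesion molecule, was at 6.38 ± 2.71 and 35.4 ± 4.1 RPKM (SD, n = 3 each, log2 fold change 2.56, adjusted p = 0.000617, limma). For CSF1 the closest were C6orf106 (0.996), TXLNA (0.995), ZNF800 (0.995), ABCF1 (0.990) and PDCD2L (0.990), of which 0 were DEGs and whose log2 fold changes ran from 0.12 to 0.52. A high correlation here thus went with changes of very different size.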

How the data were processed

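RNA-seq of T24 cells comprised 3 shRNA-NC and 3 shRNA-UBC9 samples, grouped by their labels. The authors prepared polyA libraries with a TruSeq kit, mapped reads with the CLC Biomedical Genomics Workbench to human genome build hg38, and deposited RPKM values per gene. The annotation release, strand setting and treatment of multi-mapping reads are not given in the sources used here. Because RPKM values are not counts, log2(RPKM + 0.1) was tested with limma 3.58.1 (eBayes with an intensity trend, R 4.3.3) on genes with at least 0.5 RPKM in 3 of 6 samples. Receptor genes below this filter and ligand ratios were compared by two-sided exact permutation tests (Python 3.11.15, numpy 2.4.6, pandas 2.3.3, scipy 1.17.1). Read numbers and depth were estimated from the steps of low RPKM values (up to 0.15 RPKM, tolerance 0.05 reads) and GENCODE exon lengths, which fitted for 1039 of 4014 low genes. Limits from reads cover counting error only.

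Named genes were the 7 members, up to 6 DEGs of each list, the 3 nearest protein-coding genes on each side and the 5 most correlated genes for each ligand. Other list genes were chosen after their values were seen, for their known roles. The level of the targeted gene and values of some list genes are not reported here. The members and lists were chosen with earlier results of these data known. The scripts were tested on simulated data. Alternatives were other pseudocounts (1 and 0.01), filters and scalings, no intensity trend, a replicate block, other thresholds and leaving out each replicate. The other thresholds were looser than the main rule, so they could not remove a call. Figures were drawn with matplotlib 3.10.9.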

Additional observations from a re-analysis of the deposited data

How the results depend on the processing

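CSF3 and CSF2 were called under every alternative that gave a test, with log2 fold changes of 6.89 to 7.75 and of 4.19 to 5.31 when single replicates were left out. CSF2 had no value with a filter of at least 1 RPKM in every sample. CSF1 ranged from 0.71 to 1.21 when replicates were left out and was not called with a pseudocount of 1 (0.85), quantile normalization (0.96) or median scaling (0.96), nor without shRNA-NC replicate 3 (0.71) or shRNA-UBC9 replicate 2 (0.88). The cause was not tested. An alternative chosen after seeing the data kept only shRNA-NC replicate 1 and shRNA-UBC9 replicate 3, which allows no test and no count of DEGs, and gave 3.75 for CSF2 and a difference of 0.0344 RPKM for CSF1R.

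Over all genes 646 were up-regulated and 335 down-regulated. These counts were 391 and 161 with a pseudocount of 1, 342 and 210 with at least 1 RPKM in every sample (fewer genes tested), and 2339 and 2237 without the fold threshold. In the lists they were 14 and 2, and 31 and 7 without the fold threshold. The down-regulated list count was 1 to 2 when replicates were left out, and 1 without shRNA-UBC9 replicate 1. Differences of CSF2RA, CSF2RB and CSF3R, shRNA-UBC9 minus shRNA-NC, changed sign when replicates were left out. They ran from -0.0001285 to 0.04332 RPKM for CSF2RA, -0.001925 to 0.001849 RPKM for CSF2RB and -0.01475 to 0.006787 RPKM for CSF3R. The difference of CSF1R stayed positive, at 0.009742 to 0.02419 RPKM.

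The labels do not say whether samples with the same replicate number belong together. The correlations of their deviations from the group means were -0.367, 0.073 and -0.17, and not every sample correlated best with its own number. Deviations of 3 samples from their own mean sum to 0, so these values cannot decide whether the numbers mark pairs. With a replicate block the counts were 642 and 332, CSF2 and CSF3 stayed at 4.92 and 7.41, CSF1 stayed just above 1, and no call of a CSF gene changed. Depth limits the receptor genes, for which fewer than 3 reads in a library cannot be told from 0.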

Other observations

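Some genes outside the lists, chosen after their values were seen, were also at 0 in shRNA-NC replicate 1 and shRNA-UBC9 replicate 3 alone. HBB, a haemoglobin chain, was 0.637 and 0.877 RPKM in shRNA-NC replicates 2 and 3 and 0.776 and 0.794 RPKM in shRNA-UBC9 replicates 1 and 2. S100A8, a calcium-binding protein of neutrophils and monocytes, was 1.06 and 0.823 RPKM in the same shRNA-NC libraries and 1.05 and 1.07 RPKM in the same shRNA-UBC9 libraries. HBA2 and LTF (lactoferrin) were above 0 in the same 4 libraries, at 0.464 to 0.675 RPKM and 0.0668 to 0.125 RPKM.

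The endothelial cadherin CDH5 was 2.87, 3.15 and 2.58 RPKM in shRNA-NC and 0.242, 0.594 and 1.02 RPKM in shRNA-UBC9 (log2 fold change -2.20, adjusted p = 0.00288, limma), whereas PECAM1 and VWF, of the same marker list, were at most 0.0707 RPKM in any sample. Of the 3 fibroblast markers, PDGFRB was the DEG and lower in shRNA-UBC9 (log2 fold change -1.48, adjusted p = 0.00325, limma), but it passed the filter only through shRNA-NC. COL1A1 had a log2 fold change of 0.95 (adjusted p = 0.0276, limma), and DCN was at most 0.0166 RPKM. NKG7, a marker of natural killer cells, was at most 0.148 RPKM.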
